A study of Homo sapiens with 2 samples.

Results

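A set of 10 genes of the contractile cytoskeleton and of the transcriptional output of YAP and SRF were followed in Ca9-22 cells, a human squamous carcinoma line of the gingiva. The 10 members were taken by name from the platform annotation, with CCN1 and CCN2 read under their current symbols, and every probe set paired with 1 of these symbols was kept. This gave 34 probe sets of the 41097 with 1 symbol, and 10 genes of 19775. Ca9-22 cells carrying a lentiviral PTHLH vector were compared with Ca9-22 cells carrying an empty vector (EV), both selected with blasticidin for 2 weeks and used as stably transduced populations. PTHLH is parathyroid hormone-like hormone, a secreted ligand. Total RNA of each was hybridised to 1 Affymetrix U133 array, so every difference below sets 1 culture against 1 other culture, has no replicate check and carries no p-value. In bulk RNA, fewer cells expressing a gene and less RNA per cell cannot be told apart.

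SRF is a transcription factor that, with its cofactors MRTFA and MRTFB, switches on actins and actin-binding proteins when cellular actin is assembled into filaments. YAP and its relative TAZ are coactivators that the Hippo kinases keep out of the nucleus, and that bind DNA through TEAD factors. In smooth muscle and in myofibroblasts the contractile genes ACTA2, TAGLN, CNN1, MYL9, TPM1, TPM2 and CALD1 are abundant, whereas CCN1, CCN2 and ANKRD1 are widely used as readouts of YAP activity in epithelial and cancer cells.

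Promoter windows of the members were read from RefSeq (GRCh38.p14), each running from 250 bases before to 50 bases after an annotated start site. Of the members, 7 matched at least 1 window, with 12 windows in all. TAGLN, MYL9 and CCN1 matched none, so their promoters were not searched, nor were bases outside the windows. The CArG box, the motif of SRF (CC, then a run of A or T, then GG), was absent from all 12 member windows and present in 1.29% of all 35116 windows. Allowing 1 base other than A or T in the run, a looser form chosen after the strict search, 2 member windows held a match, against 8.13% of all windows. The TEAD motif GGAATG, searched on both strands, was found in 5 member windows, those of ACTA2, CALD1, CCN2 and ANKRD1, against 14.0% of all windows, and the motifs searched did not overlap one another. The windows below, 3 in all, are shown because they hold the most matches, that of ACTA2 with both kinds of motif and those of CCN2 and ANKRD1 with several TEAD motifs. Capitals mark the matches, the CArG-like boxes being the longer ones, and a match is a description of these letters and not of binding.
ACTA2, minus strand of chr10:88952724-88953023: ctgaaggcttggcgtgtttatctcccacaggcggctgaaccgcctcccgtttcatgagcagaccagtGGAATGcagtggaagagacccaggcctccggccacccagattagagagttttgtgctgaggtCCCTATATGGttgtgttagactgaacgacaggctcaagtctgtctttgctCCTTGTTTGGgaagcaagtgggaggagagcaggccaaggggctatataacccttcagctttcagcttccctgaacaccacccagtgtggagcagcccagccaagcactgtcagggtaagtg
CCN2, minus strand of chr6:131951323-131951622: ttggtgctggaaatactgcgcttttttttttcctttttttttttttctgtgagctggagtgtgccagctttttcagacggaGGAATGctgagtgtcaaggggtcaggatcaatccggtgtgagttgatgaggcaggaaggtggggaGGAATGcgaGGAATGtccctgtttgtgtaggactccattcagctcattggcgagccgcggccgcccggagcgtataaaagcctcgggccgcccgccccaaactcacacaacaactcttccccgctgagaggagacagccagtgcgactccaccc
ANKRD1, minus strand of chr10:90921038-90921337: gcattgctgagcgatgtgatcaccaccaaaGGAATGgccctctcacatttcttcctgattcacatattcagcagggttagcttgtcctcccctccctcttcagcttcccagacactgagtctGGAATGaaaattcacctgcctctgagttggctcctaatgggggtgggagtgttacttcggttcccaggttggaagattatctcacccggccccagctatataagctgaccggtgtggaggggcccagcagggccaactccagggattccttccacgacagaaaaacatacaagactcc
The ACTA2 window held GGAATG at -183 and CArG-like boxes at -121 and -71, counted from the start site to the first base of the match. The CCN2 window held GGAATG at -169, -104 and -95, and the ANKRD1 window held it at -220 and -128. At least 2 TEAD motifs were present in 1.37% of all windows, and at least 3 in 0.128%. A second window of ACTA2, at another start site (chr10:88991288-88991587), held neither motif.

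ACTA2 was lower with PTHLH, and no other member changed by 1.5-fold, the threshold that the study set for its own signature. By its brightest probe set, smooth muscle actin, the contractile actin of smooth muscle and myofibroblasts, had an intensity of 74.3 on the PTHLH array and 169 on the EV array. The log2 difference, PTHLH minus EV, was -1.19, or 2.28-fold lower. Among probe sets with a mean log2 intensity of 6 to 8 this difference lay at percentile 0.357, and 74 of 19775 genes had a lower one. The other probe sets of ACTA2 did not share it. The second had an intensity of 6.30 on the PTHLH array and 5.48 on the EV array (0.20 on the log2 scale), and the third had 4.84 with PTHLH and 4.61 with EV (0.070). Both lay below the lower quartile of each array, which was 7.74 with PTHLH and 7.70 with EV, so the lower ACTA2 signal rests on 1 probe set. ACTA2 is also the only member listed among the pathway molecules that the study chose on these same arrays, so its difference here is no independent evidence.

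Over all members, 1 of 34 probe sets (2.94%) was at least 1.5-fold lower on the PTHLH array and 0 were at least 1.5-fold higher. The same thresholds were passed by 2.78% and 2.0% of all probe sets with 1 symbol. Of the 34, 23 probe sets from 8 genes lay above the median of both arrays (19.4 with PTHLH, 19.5 with EV), where the background was 3.57% lower and 2.72% higher. The remaining 11 lay below both medians, and CNN1 and ANKRD1 had no probe set above a median. Taking each gene by its brightest probe set, 1 of 10 genes was lower and 0 were higher, against 3.52% and 1.97% of all genes. By probe set, the counts of members were thus near the background. By gene, the lower count was a larger share than 3.52%, but it rests on ACTA2 alone and no test was run. The median log2 difference was 0.05 over the 34 probe sets and 0.10 over the 10 genes, and 0 over all probe sets and over all genes. Without ACTA2 the medians were 0.04 over 31 probe sets and 0.11 over 9 genes.

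**Figure D1:**
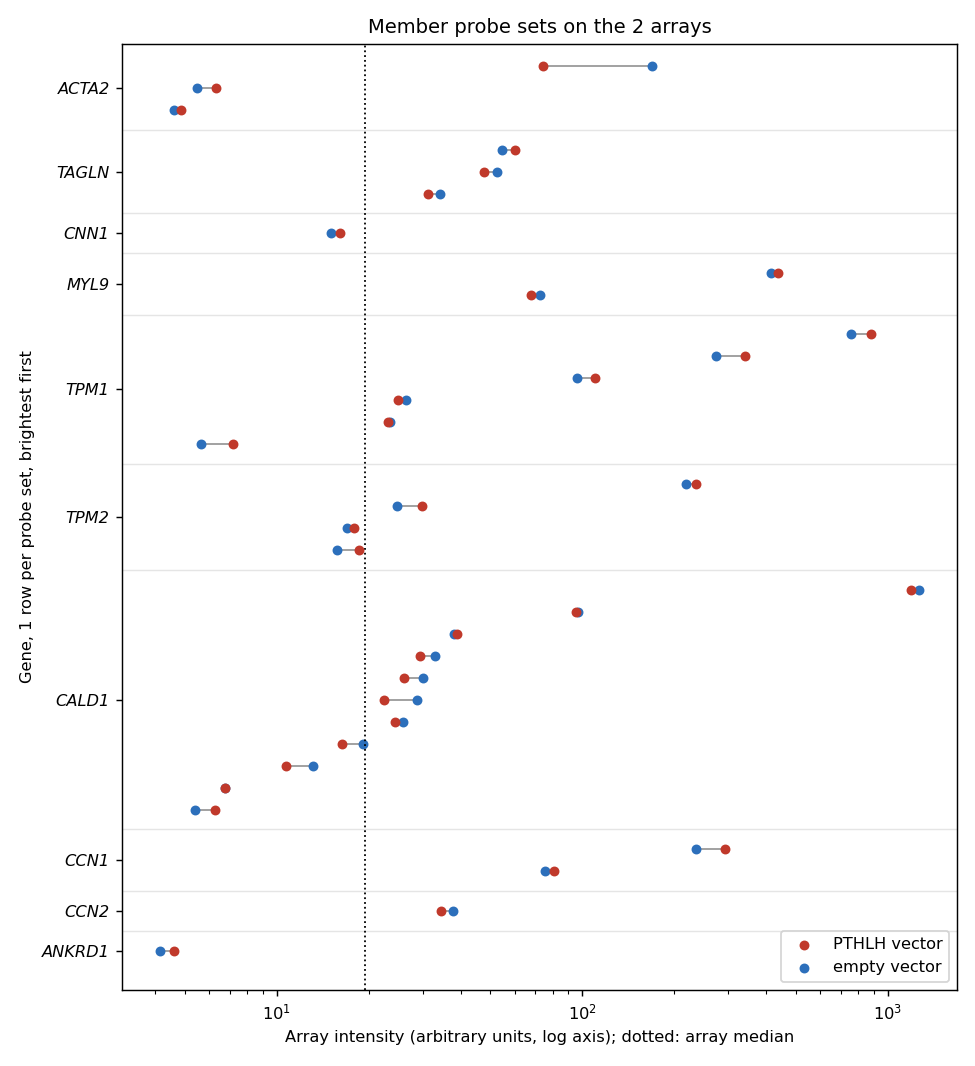
Intensity (arbitrary units, log axis) of each of the 34 member probe sets, grouped by gene with the brightest on top; red points are the PTHLH array, blue points the EV array, 1 array each, and the dotted line is the array median. The top probe set of ACTA2 is the only one whose points lie far apart, at 74.3 with PTHLH and 169 with EV.

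How far such a difference can be trusted was judged from the gap between the 2 brightest probe sets of a gene. A single log2 difference had an SD of 0.23 by this measure over 10523 genes, and of 0.20 over the 5594 genes whose 2 probe sets lay above both medians. The SD was 0.25 where the dimmer probe set had a mean log2 level under 4, 0.18 at 6 to 8 and 0.12 at 8 or more. The brightest probe sets of MYL9, TPM1, CALD1 and CCN1 lay at 8 or more. This error covers differences between probes and not between cultures. The probe sets of the members other than ACTA2 had log2 differences between -0.37 and 0.35, and their brightest ones between -0.13 and 0.32. Over all probe sets, percentiles 5 and 95 lay at -0.46 and 0.44, so each probe set of the other 9 members fell between these bounds.

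TAGLN and CNN1, which bind actin filaments, stayed within 1.5-fold. TAGLN, the actin-bundling protein SM22, had 60.3 on the PTHLH array and 54.4 on the EV array by its brightest probe set, a log2 difference of 0.15. Its other probe sets had 47.7 with PTHLH and 52.5 with EV (-0.14), and 31.2 with PTHLH and 34.1 with EV (-0.13), so the 3 probe sets of TAGLN did not share a direction and all lay within the error. CNN1, the calponin of smooth muscle, had 16.1 with PTHLH and 15.1 with EV by its single probe set (0.09), below both array medians.

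MYL9, the regulatory light chain through which myosin II is activated, had 436 on the PTHLH array and 415 on the EV array (0.07). Its dimmer probe set had 67.9 with PTHLH and 72.5 with EV (-0.09), the opposite sign at a size below the error. MYL9 was therefore the bright contractile gene with the smallest difference by its brightest probe set.

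The tropomyosins, which lie along actin filaments and set which proteins can bind them, differed by less than 1.5-fold, with values above 0 by their brightest probe sets. TPM1 had 882 on the PTHLH array and 755 on the EV array by its brightest probe set, a log2 difference of 0.22 (1.17-fold). The next brightest had 340.4 with PTHLH and 273.7 with EV (0.31), and the third 110.0 with PTHLH and 96.0 with EV (0.20). All 3 of these carry the suffix x or s, which marks probe sets that can bind several transcripts. The specific probe sets of TPM1 above the medians had 25.0 with PTHLH and 26.4 with EV (-0.08), and 23.1 with PTHLH and 23.5 with EV (-0.02). The sixth, a dim one, had 7.16 with PTHLH and 5.63 with EV (0.35). TPM2 had 236 on the PTHLH array and 218 on the EV array (0.11), and its 4 probe sets all had a log2 difference above 0, between 0.08 and 0.27. The SD between these 4 was 0.09, and probe sets of 1 gene on the same arrays are not replicates.

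CALD1, caldesmon, which binds actin and tropomyosin and restrains myosin, had mostly values below 0, also within 1.5-fold. Its brightest probe set had 1192 on the PTHLH array and 1269 on the EV array (-0.09). Of its 11 probe sets, 8 had a log2 difference below 0, 2 above 0 and 1 an identical value on both arrays. They ran from -0.37 (22.4 with PTHLH, 28.9 with EV) to 0.22 (6.28 with PTHLH, 5.40 with EV), with a median of -0.09 and an SD between probe sets of 0.17. The largest differences of CALD1, in both directions, belonged to dim or nearly dim probe sets. The plot of differences by gene shows the probe sets of TPM2 to the right of 0 and most of those of CALD1 to its left.

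**Figure D2:**
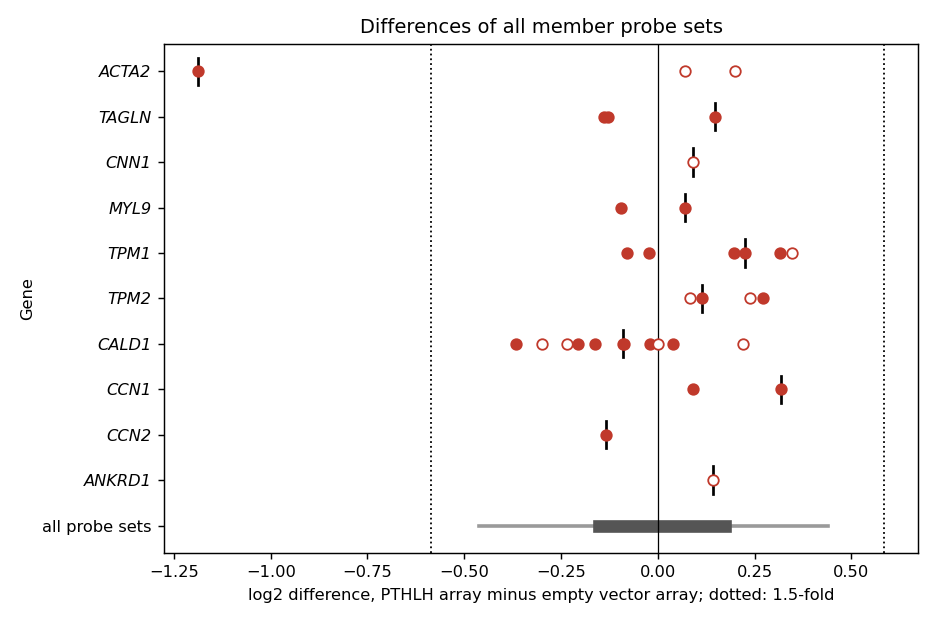
Log2 difference, PTHLH array minus EV array, for each member probe set; filled points lie above the median of both arrays, open points do not, the black tick is a gene's brightest probe set and the dotted lines are 1.5-fold. The bars at the bottom run from percentile 5 to 95 (thin, -0.46 to 0.44) and between the quartiles (thick) of all probe sets; only 1 point of ACTA2, at -1.19, lies beyond a dotted line.

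None of the YAP readouts CCN1, CCN2 and ANKRD1 differed by 1.5-fold. CCN1, a secreted matrix-associated protein formerly named CYR61, had the largest positive difference of the members by brightest probe set, with 294 on the PTHLH array and 236 on the EV array (0.32 on the log2 scale, 1.25-fold). Its second probe set had 80.5 with PTHLH and 75.7 with EV (0.09). The single probe set of CCN2, the related protein formerly named CTGF, had 34.4 with PTHLH and 37.7 with EV, a log2 difference of -0.13. ANKRD1, an ankyrin repeat protein best known from heart muscle, had 4.59 with PTHLH and 4.15 with EV, both below the lower quartile of their arrays. CCN2 and ANKRD1, whose promoter windows above hold several TEAD motifs, thus had differences of opposite sign, and both lay within the error. The low intensity of ANKRD1 and CNN1 limits what these arrays can show of them.

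**Figure D3:**
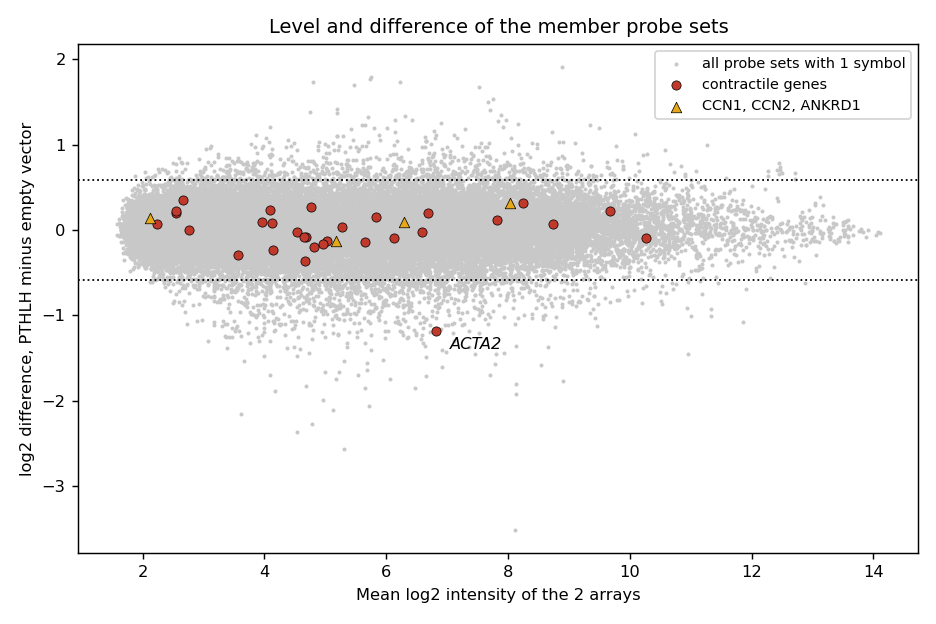
Log2 difference, PTHLH array minus EV array, against the mean log2 intensity of both arrays. Grey points are the 41097 probe sets with 1 symbol, red circles the contractile members and yellow triangles CCN1, CCN2 and ANKRD1; all but the bright ACTA2 probe set at -1.19 lie between the dotted 1.5-fold lines.

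Other genes of the same machinery were read from 5 lists, each gene by its brightest probe set. Some genes, CNN3, TPM4 and ACTB among them, stand in more than 1 list, so the counts and medians of the lists are not independent. Of 17 measured smooth muscle contractile genes beyond the members, 1 was at least 1.5-fold higher and 1 lower, against 1.97% and 3.52% of all genes, with a median log2 difference of 0.02. MYLK, the kinase that phosphorylates MYL9, had 1254 on the PTHLH array and 824 on the EV array (0.61), and its second bright probe set had 355 with PTHLH and 220 with EV (0.69). Its other 3 probe sets lay below both medians, with log2 differences of 0 to 0.23, and MYLK came within 1.5-fold under quantile normalization and by the median of its probe sets (0.23). PDLIM3, an actin-associated LIM protein, had 48.5 with PTHLH and 89.0 with EV (-0.88), though another probe set above both medians had 0.13. CSRP2, a LIM protein of smooth muscle, had 579 with PTHLH and 803 with EV (-0.47), within 1.5-fold.

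Of 20 measured cytoskeletal SRF targets that most cells express, 0 were higher and 1 was lower, against 1.97% and 3.52% of all genes. The list had a median of -0.04. The lower one was CNN3, the calponin of non-muscle cells, with 89.1 on the PTHLH array and 149 on the EV array (-0.74) and, by its other probe set, 58.2 with PTHLH and 107 with EV (-0.88). In the same list TPM4, a tropomyosin of non-muscle cells, had 0.39 and the focal adhesion protein TGFB1I1 had 0.35 on the log2 scale, both within 1.5-fold.

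Of 26 genes of the Hippo pathway, YAP, TAZ and TEAD, 0 were higher and 0 were lower, against 1.97% and 3.52% of all genes. The list had a median of -0.01. AJUBA, a LIM protein that restrains the Hippo kinases LATS1 and LATS2, had 2458 on the PTHLH array and 1712 on the EV array (0.52). Its other probe sets, all above both medians, had 0.45, 0.67 and -0.14, so 1 of the 4 passed 1.5-fold. YAP1 had 502 with PTHLH and 399 with EV (0.33), and its other probe sets had 0.29 and 0.72. WWTR1, which encodes TAZ, had 453 with PTHLH and 592 with EV (-0.39), whereas its other probe sets had 0.38 and 0.09. The probe sets of WWTR1 thus pointed both ways. Of 18 measured YAP and TAZ targets beyond the members, 1 was higher and 0 were lower, against the same shares of all genes. The list had a median of 0.02. The higher one was FJX1, a relative of four-jointed, a regulator of tissue polarity in the fly. FJX1 had 328 on the PTHLH array and 218 on the EV array (0.59), just past 1.5-fold. The transcription factor FOXF2 (0.52) and the membrane-repair protein MYOF (0.50) came next on the log2 scale, within 1.5-fold. The other probe sets of MYOF had 0.65, past 1.5-fold, and 0.02.

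Of 20 measured relatives of the members from the same gene families, 1 was higher and 3 were lower, with a median of -0.08. Both counts are a larger share than the 1.97% higher and 3.52% lower over all genes, they rest on 4 genes, and no test was run. ANKRD2, the skeletal muscle relative of ANKRD1, had 94.1 on the PTHLH array and 51.0 on the EV array (0.88). CNN3 was 1 of the lower ones. MYL5, another myosin light chain, had 114 with PTHLH and 189 with EV (-0.73), and CCN5, a relative of CCN1 and CCN2, had 139 with PTHLH and 209.6 with EV (-0.59). ANKRD2, MYL5 and CCN5 had 1 probe set each. MYLK, MYL5, YAP1, AJUBA and the fibroblast marker COL1A1 are among the molecules that the study chose on these arrays, so their values are no independent evidence. The other measured actins of the list stayed within 1.5-fold, ACTB among them with 10271 on the PTHLH array and 8369 on the EV array (0.30). All 6 probe sets of ACTB had log2 differences above 0, from 0.23 to 0.45. ACTG1 was listed but not measured. ACTA1 lay below both medians, and ACTC1 and ACTG2 reached no more than 36.2 with PTHLH and 35.8 with EV. ACTB is often used as a loading control, as is GAPDH, whose brightest probe set had 12473 with PTHLH and 12055 with EV (0.05).

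The labelled cell type was checked against marker genes by the same values. The 6 measured markers of squamous epithelium were all above both array medians, at 447 to 13240 with PTHLH and 390.1 to 12880 with EV, and none differed by 1.5-fold. Of 6 smooth muscle markers, 4 lay above both medians, and the list ran from 16.1 to 126 with PTHLH and from 15.1 to 113 with EV. Their summed intensity was 310.5 with PTHLH and 316 with EV, and MYH11, the myosin heavy chain of smooth muscle, had 34.1 with PTHLH and 34.9 with EV. Among these markers CNN1, the dimmest, is a member, and the others also stand in the smooth muscle contractile list. They are thus no separate check on those genes. Of 9 fibroblast markers, 4 lay above both medians and 1, FAP, a dim one, was at least 1.5-fold higher, against 1.97% of all genes. LUM and COL3A1 were below the lower quartile of both arrays. The list summed to 1789 with PTHLH and 2570.1 with EV, most of it COL1A1, which had 1652 with PTHLH and 2437 with EV (-0.56). That sum thus rests mostly on 1 probe set. The other probe sets of COL1A1 reached at most 101 with PTHLH and 102 with EV. Their log2 differences were -0.007, -0.52, -0.66 and 0. Endothelial markers, 2 of 4 above both medians, summed to 182 with PTHLH and 184 with EV. Of all 19775 genes, 13568 had a probe set above the median of at least 1 array. At that looser threshold the smooth muscle, fibroblast and endothelial counts by brightest probe set were again 4, 4 and 2. The smooth muscle, fibroblast and endothelial counts therefore do not by themselves show that such cells were present. Whether any of these cell types had a part in the ACTA2 difference was not tested.

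A description field of the labels names another line, CX-1, and another gene, RAB3C, for the same samples, whereas titles and characteristics name Ca9-22 and PTHLH and were followed. Of 8 markers of colon epithelium, 4 lay above both medians, none above 37.1 with PTHLH or 49.1 with EV. GPA33 was the 1 marker at least 1.5-fold lower, against 3.52% of all genes. The level of PTHLH was not analysed here, since the annotation used pairs it with no probe set. For ACTB, the 3′ probe set exceeded the 5′ one by 4.17 on the PTHLH array and 4.39 on the EV array on the log2 scale. The GAPDH 3′ probe set had 12432 with PTHLH and 12201 with EV, and its 5′ one had 7961 with PTHLH and 8135 with EV. The gap of ACTB was thus much wider than that of GAPDH on both arrays. Of the 54675 probe sets, 6.16% held the same value on both arrays.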

How the data were processed

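The deposited table holds linear-scale intensities that the authors made, 1 for each probe set, from 1 Affymetrix U133 array per condition. How background was corrected, arrays were normalized and probes were summarised is not given in the sources used here. Samples were grouped by their characteristics. Intensities were turned to log2 values and EV was subtracted from PTHLH without further scaling. Probe sets were named from platform annotation, and symbols were brought up to date by gene identifier (GRCh38.p14). Left out were 1801 probe sets that carry several symbols and 11777 that the annotation leaves unnamed here. Each gene was read from its brightest probe set, by mean log2 value. Changes of 1.5-fold or more were counted. No test was run, because cultures were not replicated, and the number of arrays limits precision. Named genes were all 10 members, in each list the 3 genes that differed most in size and lay above the median of at least 1 array, ACTB and GAPDH; CCN5, GPA33, FAP, LUM, COL3A1, COL1A1 and MYH11 were named after their values were seen. The members and lists were chosen with earlier results of these data known. The result of 1 further list is not reported here. The counting was tested on simulated data. Python 3.11.15, pandas 2.3.3, numpy 2.4.6 and matplotlib 3.10.9 were used.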

Additional observations from a re-analysis of the deposited data

How the results depend on the processing

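The lower ACTA2 signal depended on how its probe sets were summarised. Taken as the median of its probe sets, its log2 difference was 0.070, since 2 of its 3 probe sets are dim, and 0 members were lower. Under the other 7 alternatives it lay between -1.19 and -1.04. These were quantile normalization, centring on the brighter probe sets, 16 added before log2, a floor at percentile 40, leaving out dim probe sets, leaving out those with suffix x or s, and taking the largest change. Of these 7, only quantile normalization (-1.18) and adding 16 (-1.04) moved the ACTA2 value. The others read the same bright probe set at the same value, so they are no further check on it. No member was at least 1.5-fold higher under any alternative or at 2-fold, where ACTA2 was still lower. The median over the member genes lay between 0.01 and 0.12, and that over their probe sets between -0.02 and 0.07. Small differences changed sign in TAGLN (-0.13 by the median over probe sets), and in MYL9 and TPM1 (-0.09 and -0.08 without suffix x or s). With the floor, ANKRD1 had -0.0029, but both its values were then replaced by the floors. That value is the gap between the floors of the arrays and no reading of ANKRD1. The study's threshold on all genes called 390 higher and 696 lower, 216 and 385 after adding 16, 248 and 444 by the median over probe sets, 689 and 984 by the largest change, and 36 and 145 at 2-fold. Of the related genes, MYLK and FJX1 came within 1.5-fold under quantile normalization, MYLK also by the median over probe sets, FJX1 and CCN5 after adding 16, and PDLIM3 without suffix x or s, which left ANKRD2 and MYL5 with no probe set, and at 2-fold 0 genes of the related lists were called. By the largest change, 4 of 26 Hippo pathway genes were higher and 1 lower. Of the 18 YAP and TAZ targets, 2 were then higher and 2 lower, with a median of 0.34. Under the same setting, 689 of all 19775 genes were higher and 984 lower, with a median of 0. No paired analysis was possible because each condition has 1 array.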
